A study of Mus musculus with 12 samples.

Results

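The genes described are the cytosolic ribosomal protein genes of mouse embryonic stem cells. They were chosen by symbol: Rpl or Rps followed by a number, Rplp0 to Rplp2, and Rpsa. Symbols marked -ps (289 rows), Rps6k kinases (10 rows) and rows with a mean CPM (a gene's counts scaled to a library of fixed size) under 10 over the 12 libraries (9 rows) were left out. This left 84 of the 55487 genes in the count table. They comprise 49 Rpl symbols, 34 Rps symbols and Rps19bp1, which the pattern takes in although it encodes a protein that binds Rps19 and is no part of the ribosome. Of the 84, 76 are the standard genes (45 for the large subunit, 31 for the small), 5 are paralogs of a standard gene, and 2 are rows annotated as pseudogenes. They lie on 19 chromosomes, 4 of them on X.

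Polyadenylated RNA was sequenced from E14 Tg2a cells, a male mouse embryonic stem cell line. Pcbp1 encodes a protein that binds C-rich RNA and DNA. Naive cells and epiblast-like cells (EpiLC) were sampled for both genotypes, which gave 4 groups of 3 libraries. WT stands for control clones that are independent of each other (labelled wild type, or Scr), and KO for independent Pcbp1 knockout clones. Naive cells were kept in serum-free N2B27 medium with LIF and the inhibitors PD0325901 (of MEK) and CHIR99021 (of GSK3) on poly-L-ornithine. EpiLC came from those cells after 48 h on fibronectin in N2B27 with bFGF, activin A and KOSR, a serum replacement. All groups thus share the parental line and the basal medium.

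The libraries held 27146744 to 42204511 counted reads. In naive cells, Pcbp1 lay at 417.9 to 475.4 CPM in control libraries and 295.3 to 302.9 in knockout libraries. The EpiLC ranges were 511.9 to 692.1 CPM for WT and 250.3 to 301.8 for KO. The labels do not say which bases of Pcbp1 were altered, so reads from the rest of the gene do not test the knockout. Naive markers summed to 3299 to 3556 CPM in naive libraries and 125.3 to 480.2 in EpiLC libraries, and epiblast-like markers to 78.92 to 152.8 and 1985 to 3371. The 4 endoderm markers summed to 1.115 to 5.857 CPM in WT libraries of EpiLC and 11.78 to 17.7 in KO libraries, and the 5 fibroblast and feeder markers to 4.089 to 10.95 and 14.76 to 19.64. None of these endoderm or fibroblast markers was at 0 in every library of a group. The 4 pluripotency markers shared by naive and epiblast-like cells summed to 856.4 to 1022 CPM in WT libraries of EpiLC and 1150 to 1304 in KO libraries. All 3 marker sets were higher in KO without overlap at the EpiLC stage, and their part in the results for those cells was not tested.

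A ribosome joins a small and a large subunit, each built largely in the nucleolus from ribosomal RNA and ribosomal proteins. Most of these proteins are needed in equal numbers. Most ribosomal protein messengers begin with a 5′ terminal oligopyrimidine (TOP) motif, a C followed by a run of C and T, through which mTOR and Larp1 set their translation as a group. Growing stem cells devote much of their messenger RNA to these proteins. Several of the genes also carry small nucleolar RNAs (snoRNAs) in their introns.

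The annotated start sites of 6 genes that differed in EpiLC KO are shown first, because their pyrimidine runs are the sequence feature this gene family is known for. RefSeq (GRCm38.p6) gave a promoter for 62 of the 84 genes. Each line runs from 15 bases before the start to 15 bases of transcript, 5′ to 3′. Capitals mark the longest run of C and T within the line, or the first where runs are equally long.
Rpl13a (chr7:45128731-45128760, minus strand): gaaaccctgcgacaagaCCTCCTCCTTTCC
Rpl28 (chr7:4792950-4792979, plus strand): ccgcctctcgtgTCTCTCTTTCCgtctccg
Rps6 (chr4:86857353-86857382, minus strand): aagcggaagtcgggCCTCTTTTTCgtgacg
Rpsa (chr9:120127751-120127780, plus strand): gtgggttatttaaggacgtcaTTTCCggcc
Rpl41 (chr10:128549154-128549183, minus strand): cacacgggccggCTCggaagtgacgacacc
Rps15 (chr10:80292416-80292445, plus strand): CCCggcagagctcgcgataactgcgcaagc

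Within the printed bases, the run was 13 long in Rpl13a, 11 in Rpl28, 10 in Rps6 and 5 in Rpsa, and 3 in Rpl41 and in Rps15. The Rpl13a run reaches the last printed base, so it may be longer. In Rps15 the run begins at the first printed base, before the start, and a later run (ctc) is as long. Annotated starts are not measured starts: the count table's annotation begins Rps15 at chr10:80292453, downstream of the RefSeq start at chr10:80292431. For each of the other genes printed, the start also differs between these annotations. Over the 62 genes, a start at C with all of the first 5 bases C or T was found in 12 (19.35%), against 2.503% of the 32841 promoters in the table. A run of 8 or more pyrimidines in the same window was found in 25 (40.32%), against 12% of all promoters. In the window from 250 bases before to 50 after the start, searched on both strands, the letters TTCCGG occurred in 51.61% of the genes' promoters and 14.9% of all. The letters CCATNTT occurred in 30.65% and 16.08%. Matches of these motifs may overlap by a few letters, and a match describes the letters only.

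Levels per gene length, in CPM per kb of exon averaged over the 12 libraries, ran over a wide range. Rplp1, an acidic protein of the stalk that recruits translation factors, was highest at 2457. Rps15, a protein of the small subunit head, followed at 1854, and Rpl4, which lines the exit tunnel, at 1679. The lowest were Rps10 at 5.138, Rpl22l1 at 19.14 and Rpl29 at 28.55. Rps10 is a standard small-subunit gene that stood just inside the minimum level at 11.8 CPM. Another annotated gene (RPS10-NUDT3, itself at 0 in all libraries, or an antisense transcript) covers 28.7% of its exon length. Rpl29 came next at 32.1 CPM.

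The rows just outside the minimum were Rpl37rt at 5.349 CPM and Rpl36al at 2.896. Rpl24, a standard gene of the large subunit, fell there too with 0.5589 CPM, and was singled out after its value was seen. Of its exon length, 47% is shared with Gm28037, a row at 0 in all libraries. Under the counting used, a read that overlaps several genes or aligns to several places is not assigned, so levels of genes with overlapping neighbours or near-identical copies are uncertain. Exons of 37 of the 84 genes overlap another annotated gene. In Rpl23a (62.3%) and Rpl35 (66.2%) the overlap covers most of the exon length.

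The spread of the 84 genes between libraries is given without a value over all genes to set it against. The coefficient of variation over the 12 libraries had a median of 11.64%, and for 41 of the 84 the highest library was under 1.5 times the lowest. It was 2 times or more for 5. The steadiest was Rpl5, which carries 5S RNA into the large subunit, at 5.82%. The most variable were Rpl23a (36.7%), Rpl10l (31.9%) and Rps20 (25.2%). Rpl23a ran from 29.9 CPM in EpiLC KO 1 to 93.9 in EpiLC WT 2. These were chosen by their spread after it was seen.

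Summed over the 84 genes, the share of all counted reads was 6.62%, 6.13% and 5.97% in the naive WT libraries and 6.48%, 6.13% and 6.16% in naive KO. For EpiLC the WT shares were 6.48%, 6.44% and 5.85%, and the KO shares 5.59%, 5.81% and 6.20%. The group means were 6.24% ± 0.337, 6.26% ± 0.195, 6.26% ± 0.354 and 5.86% ± 0.309 (SD, n = 3 each). EpiLC KO had the lowest mean, but replicate 3 lay above EpiLC WT 3, so the groups overlapped. In bulk RNA, fewer cells of a type and less RNA per cell cannot be told apart.

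**Figure D1:**
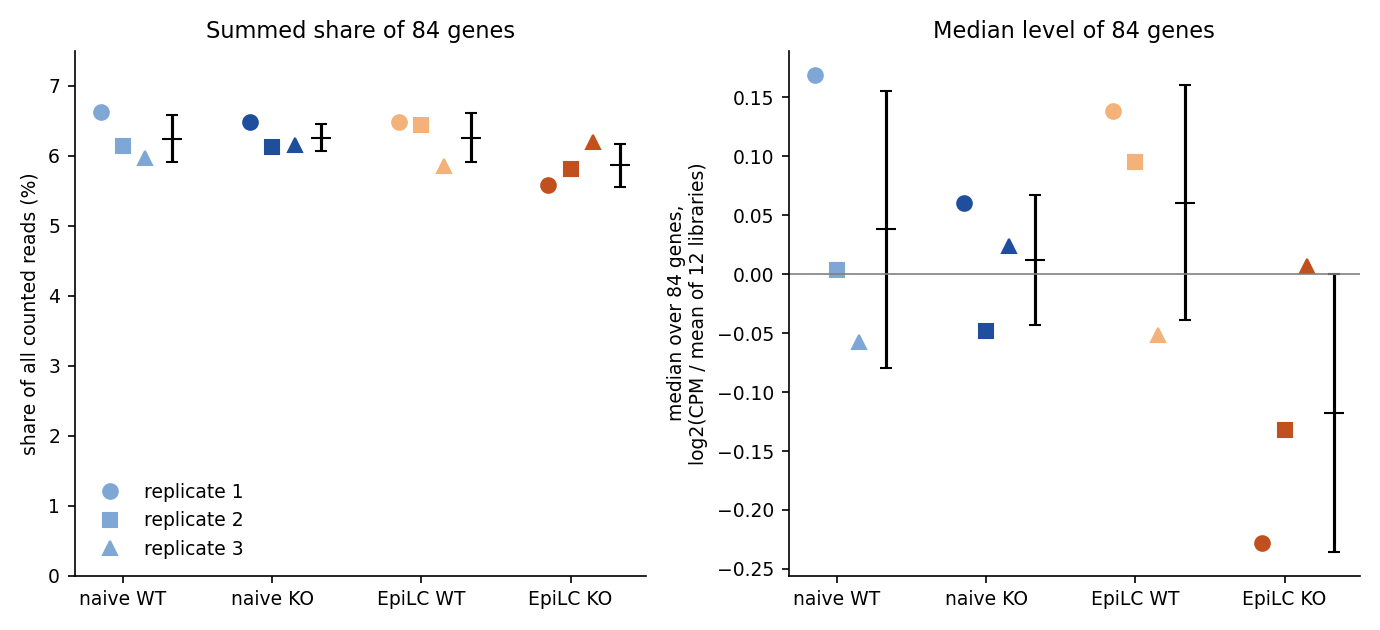
Left, the share of all counted reads (%) taken by the 84 genes in each library; right, the median over the 84 genes of the log2 ratio of CPM to the mean of the 12 libraries. Points are libraries (shape gives the replicate number), bars are mean and SD over 3 libraries; EpiLC KO 1 and 2 lie lowest on both axes, and EpiLC KO 3 lies above EpiLC WT 3.

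The median gene was likewise lowest on average in EpiLC KO. Relative to its mean over the 12 libraries on the log2 scale, it stood at 0.14, 0.09 and -0.05 in EpiLC WT 1 to 3 and at -0.23, -0.13 and 0.01 in EpiLC KO 1 to 3. In naive cells the values were 0.17, 0.00 and -0.06 in WT and 0.06, -0.05 and 0.02 in KO. EpiLC KO 1 was the lowest of the 12 libraries for 47 of the 84 genes and EpiLC KO 2 for 16, while EpiLC KO 3 was lowest for 0. EpiLC WT 1 was the highest for 37 genes and naive WT 1 for 24.

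In EpiLC, loss of Pcbp1 went with lower levels of 7 ribosomal protein genes and higher levels of none (7.22% of all genes tested were called higher). Among them are Rpl13a, Rpl28 and Rpl41 of the large subunit and Rpsa, Rps6 and Rps15 of the small subunit. The 7 make up 8.33% of the 84 genes. Of all 18134 genes tested in this comparison, 15.1% were called and 7.86% were called lower. The share called lower was thus near the background, and the share called in either direction was below it. A call is a Benjamini-Hochberg adjusted p under 0.05 in edgeR's quasi-likelihood test, and every adjusted p below comes from it.

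Most of the genes that were not called also had values below 0. In EpiLC KO, 80 of the 84 log2 fold changes were below 0, against 49.8% of all genes, with a median of -0.17 against 0.00 over all genes. Unadjusted p was under 0.05 for 21 of the 84 genes, against 5467 of all 18134. The 3 EpiLC libraries of each genotype did not overlap, with KO lower, for 19 genes (22.6%, against 17.2% of all genes) and, with KO higher, for 1 (Rps27l, against 16.1% of all genes). The median ranged from -0.13 to -0.23 when each EpiLC library was left out in turn.

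**Figure D2:**
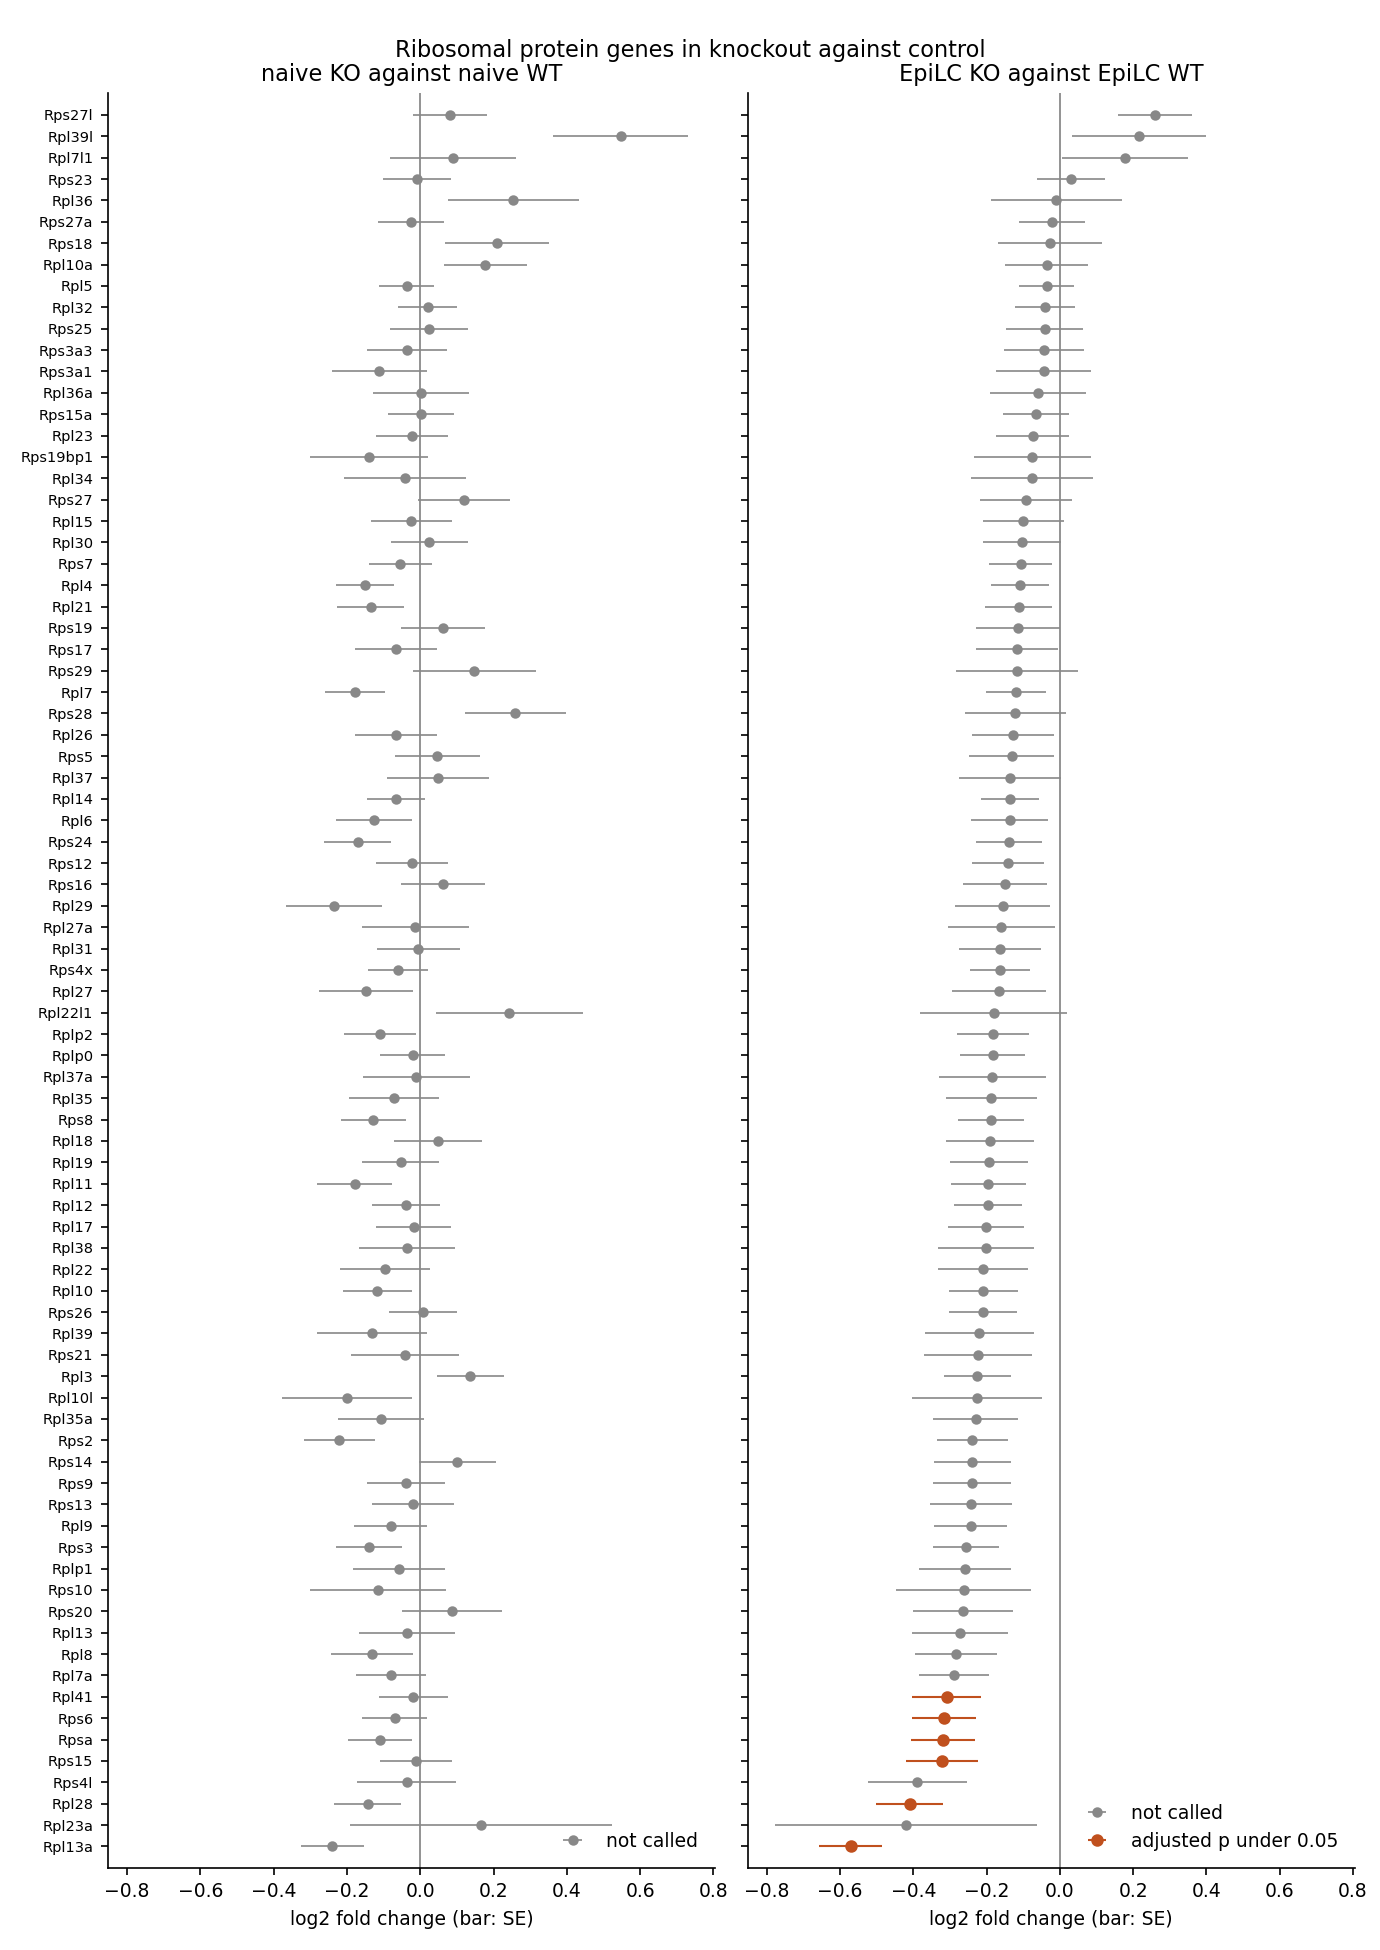
Log2 fold change of KO against WT for 82 of the 84 genes, with SE bars, in naive cells (left) and EpiLC (right), ordered by the EpiLC value. The 6 genes drawn that were called in EpiLC are coloured; 78 of 82 points lie below 0 in EpiLC and 57 of 82 in naive cells, where no gene was called.

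Rpl13a encodes a large-subunit protein that also acts outside the ribosome in the control of inflammatory messengers. The EpiLC values were 198.7, 209.8 and 210.3 CPM in WT and 144.9, 139.8 and 132 in KO. Every KO library lay below every WT library by a wide margin. The log2 fold change was -0.57 ± 0.0859 (SE), a level 0.673 times that of WT, with adjusted p = 0.00144. Rpl13a stayed called lower under each of the 14 alternative settings and left-out libraries tried. Other annotated genes cover 35.4% of its exon length, among them Gm45713, which was at 0 in all libraries.

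Rpl28 stood at 821, 678.1 and 717.9 CPM in the WT libraries of EpiLC, against 508.5, 578.3 and 582.4 in the KO libraries. The groups did not overlap, and the log2 fold change was -0.41 ± 0.0919 (adjusted p = 0.0117). It encodes a protein of the large subunit, and its lowest library was EpiLC KO 1.

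Rpl41, the shortest ribosomal protein, gave 1305, 1240 and 1158 CPM in WT and 864.2, 1005 and 1119 in KO. Its log2 fold change was -0.31 ± 0.0942 (adjusted p = 0.0443). EpiLC KO 3 was close to the lowest WT library.

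Among small-subunit genes, Rpsa encodes a surface protein of the 40S particle that is also known as the laminin receptor precursor. It reached 2287, 1931 and 1891 CPM in WT against 1616, 1577 and 1705 in KO, a log2 fold change of -0.32 ± 0.0874 (adjusted p = 0.029). Rps6, the substrate of the S6 kinases, was at 1058, 915.6 and 867.4 CPM in WT and at 725.2, 771.2 and 785.8 in KO, a log2 fold change of -0.32 ± 0.0879 (adjusted p = 0.031). Rps15, needed for nuclear export of the small subunit, was at 1488, 1331 and 1206 CPM in WT and at 976.4, 1078 and 1166 in KO, a log2 fold change of -0.32 ± 0.0978 (adjusted p = 0.044). In all 3 the groups did not overlap, and EpiLC WT 1 was the highest library.

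**Figure D3:**
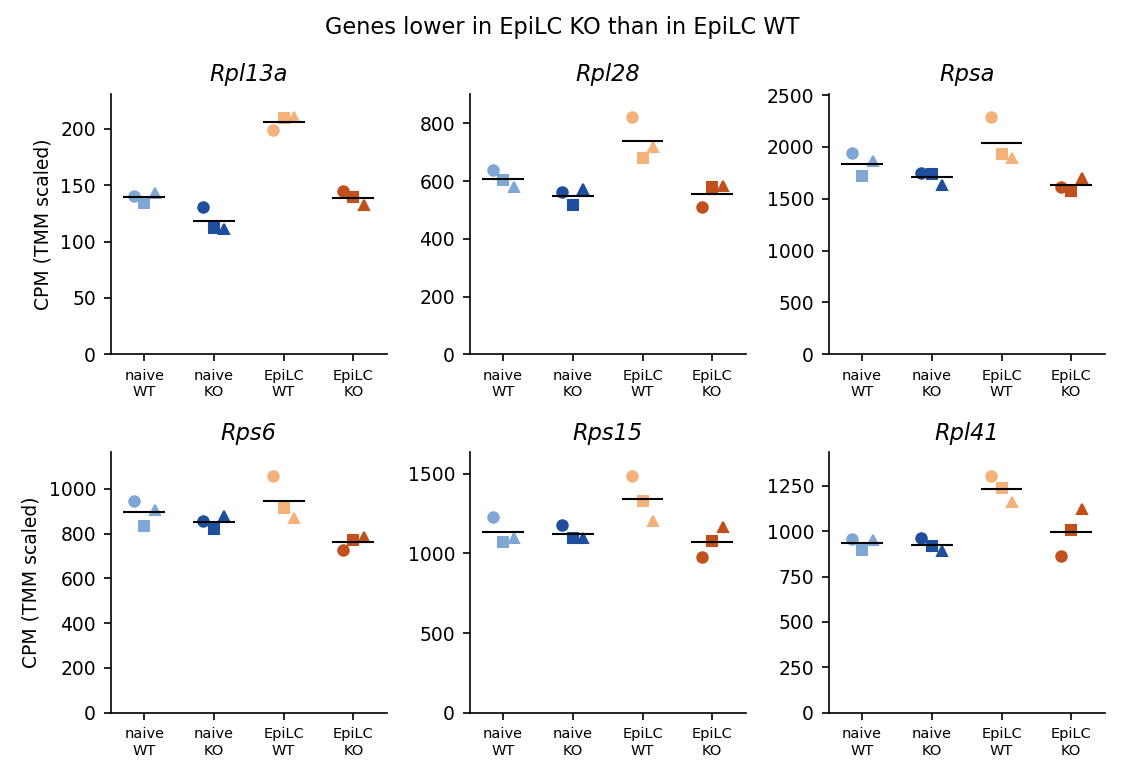
CPM (TMM scaled, axes from 0) of 6 genes called in the EpiLC comparison, in each of the 12 libraries; shapes give the replicate number and lines the group mean (n = 3). In each panel the 3 EpiLC KO points lie below the 3 EpiLC WT points, whereas naive WT and KO overlap except for Rpl13a and Rpl28.

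Apart from Rpl13a, the EpiLC KO calls were close to the threshold. Without EpiLC KO 1 only Rpl13a was called, and without EpiLC KO 2 or EpiLC WT 1 only Rpl13a and Rpl28. Leaving out EpiLC WT 2 ended the calls of Rpl41 (adjusted p = 0.0671) and Rps15 (0.0609). Leaving out EpiLC WT 3 ended that of Rpl41 (0.0568), and leaving out EpiLC KO 3 those of Rps6 (0.0589) and Rpsa (0.0502). Fold changes of the 84 genes had a Spearman correlation of -0.348 with exon GC content in this comparison. A further fit removed each library's trend on GC over all genes, taken from levels relative to each gene's mean. In that fit 8 of the 84 were called but only 3 of the 7, with Rpl41 at adjusted p = 0.258, Rps6 at 0.451 and Rps15 at 0.515. The genes share libraries, so the correlation is a description.

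By position in the ribosome, the EpiLC KO calls were 4 of 49 large-subunit genes and 3 of 34 small-subunit genes, with median log2 fold changes of -0.18 and -0.15 (7.86% of all genes tested were called lower, the background for each count in this paragraph). None was called of the 4 genes of the stalk and its base (median -0.19), of Rpl5 and Rpl11, which form a particle with 5S RNA (median -0.12), of the 8 genes at the exit tunnel (median -0.19) or of the 6 at the mRNA channel (median -0.17). None was called of the 18 members whose human counterparts are mutated in Diamond-Blackfan anaemia, a failure of red cell production. All 18 had values below 0, with a median of -0.13. Of the 24 genes that hold a named snoRNA, 3 were called and all were below 0 (median -0.21). Of the other 60, 4 were called (median -0.15). The 4 X-linked genes had a median of -0.19 with none called.

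In naive cells, no ribosomal protein gene was called between KO and WT, while 9.23% of all genes tested were. Unadjusted p was under 0.05 for 3 of the 84, against 4278 of all 18134 genes, and DESeq2 called 1 of the 84. The median log2 fold change was -0.04 and 59 of the 84 values were below 0 (70.2%, against 49.8% of all genes). The median ran from 0.00 (without naive WT 1) to -0.10 (without naive WT 3) when each naive library was left out. KO libraries lay below WT libraries without overlap for 8 genes (9.52%, against 15.3% of all genes) and above them for 1 (Rpl39l, against 15.1% of all genes). Rpl13a was among the 8, with 140.4, 134.5 and 143.2 CPM in WT, 130.5, 112 and 111.3 in KO, and a log2 fold change of -0.24 ± 0.0859 (adjusted p = 0.104).

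Whether the KO effect differed between EpiLC and naive cells was tested as an interaction over all 12 libraries. None of the 84 genes was called (0.381% of all genes were), DESeq2 called 0, and the smallest adjusted p was 0.263. Unadjusted p was under 0.05 for 6 of the 84, against 2236 of all 18134 genes. The median interaction was -0.15, and 72 of 84 values were below 0 (85.7%, against 50.7% of all genes). The median ran from -0.05 (without naive WT 3) to -0.20 (without EpiLC KO 3) when each library was left out. It was also reduced by over 1.5 times without naive WT 2, naive KO 1 or 3, EpiLC WT 1 or EpiLC KO 1 (-0.08 to -0.10). For Rpl13a it was -0.33 ± 0.121 (adjusted p = 0.278). A difference in KO effect between the culture conditions was therefore not shown for any of these genes. With a median SE of 0.153 for the interaction, changes of the size of the median could not be resolved gene by gene.

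From naive WT to EpiLC WT cells, a smaller share of the ribosomal protein genes than of all genes was called. Of the 84, 6 rose and 5 fell, or 13.1%, where 52.7% of all genes were called (26.4% up, 26.3% down). The median log2 fold change was 0.02, and 37 of the 84 were below 0 (44%, against 50.7% of all genes). The sign of this median was not stable: it was below 0 without naive WT 2 (-0.0015), naive WT 3 (-0.05) or EpiLC WT 1 (-0.02), and 0.08 without naive WT 1 and 0.09 without EpiLC WT 3. Fitted with the replicate number as a block, which in this comparison pairs the libraries, 17 were called, with 11 up and 6 down, and all of the 11 were among them.

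Rpl13a rose the most, by 0.57 ± 0.086 on the log2 scale (adjusted p = 0.000139), and its naive and EpiLC libraries did not overlap. Rpl7a, a large-subunit protein, went from 1331, 1106 and 1193 CPM to 1818, 1543 and 1520, a rise of 0.43 ± 0.0957 (adjusted p = 0.00233). Rpl41 rose by 0.40 ± 0.0942 (adjusted p = 0.00331) from naive levels of 956.5, 898.2 and 953.7 CPM. Rpl28 rose by 0.28 ± 0.0918 (adjusted p = 0.0197). In all of these the 3 EpiLC WT libraries lay above the 3 naive WT libraries. Rps13, of the small subunit and named after its value was seen, rose by 0.29 ± 0.112 (adjusted p = 0.0461).

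Rpl13a, Rpl28 and Rpl41 thus rose from naive to EpiLC in WT cells and were lower in KO cells at the EpiLC stage. Both comparisons use the EpiLC WT libraries, so the values are given side by side and not counted as support for each other. In KO cells the change from naive to EpiLC was 0.24 ± 0.0858 for Rpl13a (adjusted p = 0.0331), 0.02 ± 0.0918 for Rpl28 (adjusted p = 0.882) and 0.11 ± 0.0941 for Rpl41 (adjusted p = 0.352).

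Rps20, of the small subunit head, was among those that fell. In WT cells it went from 1287, 1166 and 1035 CPM (naive) to 842.8, 964.4 and 720.7 (EpiLC). In KO cells it went from 1249, 1260 and 1198 to 562.8, 737 and 804.3. Naive and EpiLC libraries did not overlap in either genotype. The log2 fold change was -0.46 ± 0.137 in WT (adjusted p = 0.0121) and -0.82 ± 0.137 in KO (adjusted p = 0.000272). The difference between genotypes, -0.35 ± 0.193, was not called (adjusted p = 0.497).

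The other 4 that fell in WT were Rpl10l (described below with the paralogs), Rps24, Rps2 and Rpl12. Rps24 is needed for 18S RNA maturation and changed by -0.34 ± 0.0908 (adjusted p = 0.00737). Rps2, at the entry of the mRNA channel, changed by -0.28 ± 0.098 (adjusted p = 0.028), and Rpl12, at the base of the stalk, by -0.26 ± 0.0926 (adjusted p = 0.0313). In WT cells the calls of Rps20, Rpl12, Rpl28 and Rps2 ended when a library was left out: EpiLC WT 3 for Rps20, naive WT 1 or EpiLC WT 3 for Rpl12, naive WT 2 or 3 or EpiLC WT 1 for Rpl28, and naive WT 2 or EpiLC WT 2 or 3 for Rps2. The adjusted p values of those genes without these libraries were 0.053 to 0.133. The call of Rps13, which rose, was also lost without naive WT 2 or 3 or EpiLC WT 1 or 2. Removing the GC trend also ended the call of Rps20 (adjusted p = 0.213).

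From naive KO to EpiLC KO cells, 2 of the 84 rose and 14 fell (19%, against 55.2% of all genes, 27.1% up and 28.1% down). The median log2 fold change was -0.13, and 63 values were below 0 (75%, against 51.6% of all genes). The median was -0.06 without naive KO 1, -0.07 without EpiLC KO 1 and -0.19 without EpiLC KO 3. The 5 with the smallest adjusted p among those that fell were Rps20, Rpl10l, Rpl12, Rpl17 and Rps29. Rpl12 was at 1921, 1937 and 1671 CPM in naive KO and 1389, 1348 and 1398 in EpiLC KO, a log2 fold change of -0.42 ± 0.0927 (adjusted p = 0.00197). Rpl17, at the exit tunnel, changed by -0.40 ± 0.103 (adjusted p = 0.00534). Rps29, a short zinc-binding protein of the small subunit, changed by -0.60 ± 0.168 (adjusted p = 0.00885). Rpl13a and Rps27l were those that rose.

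The count in KO cells depended on single libraries. It was 6 without naive KO 1, 8 without naive KO 2, 10 without naive KO 3, and 8 without EpiLC KO 1 or EpiLC KO 2. The call of Rps24 in KO cells was lost without naive KO 1 or EpiLC KO 2. That of Rps2 was lost without naive KO 1 or 2 or EpiLC KO 1 or 2, and that of Rpl13a without naive KO 2 or 3 or EpiLC KO 1 or 2. For the paralogs described below, the loss came without naive KO 1 or 2 or EpiLC KO 3 for Rps27l, without naive KO 1 or 2 or EpiLC KO 1 for Rpl22l1, and for Rpl39l whichever of the 6 KO libraries was left out. The adjusted p values after these losses ran from 0.0509 to 0.224. Without the filter on low counts, Rpl13a (0.187) and Rps27l (0.136) were not called either. Removing each library's trend of relative level on exon length moved the median to -0.03.

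Naive and EpiLC libraries with the same number can be set against each other. The median log2 change over the 84 genes was 0.01, 0.11 and 0.01 in WT 1 to 3 and -0.27, -0.09 and 0.00 in KO 1 to 3. In KO 1, 70 of the 84 genes were lower in EpiLC, in KO 2, 52, and in KO 3, 42. Rps20, Rpl10l, Rpl12, Rps2 and Rps24 were lower in EpiLC in all 6 pairs, and Rpl13a was lower in 0.

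**Figure D4:**
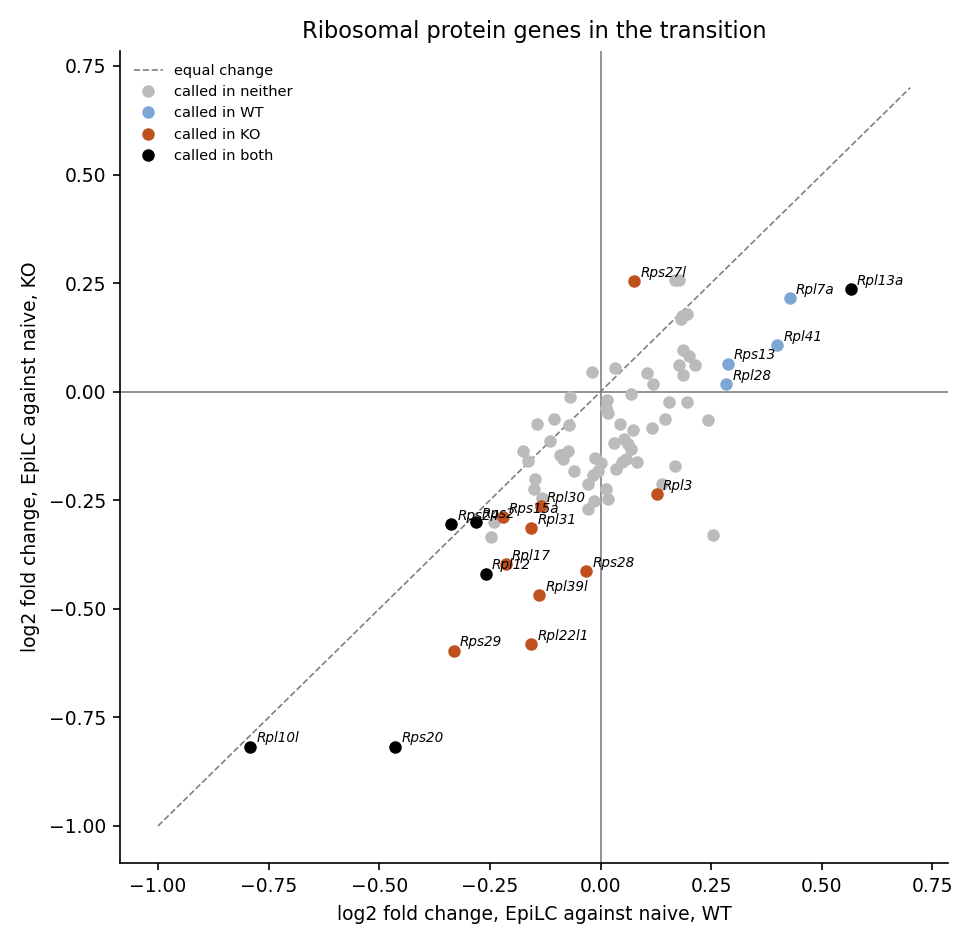
Log2 fold change from naive to EpiLC cells in WT (horizontal) and KO (vertical) for 82 of the 84 genes; the dashed line marks equal change, and colours mark genes called in either or both genotypes. Of the points, 6 are called in both genotypes, all with the same sign, and 70 of the 82 points lie below the dashed line.

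The WT and KO transitions share no library. Their log2 fold changes over the 84 genes had a Pearson correlation of 0.79 and a Spearman correlation of 0.735 (0.905 by Pearson over all 18134 genes). Of the genes called, 6 were shared with the same sign, which is 54.55% of the WT calls and 37.5% of the KO calls. Over all genes, 52.7% were called in WT and 55.2% in KO, and the overlap of those calls is not given here. All 5 that fell in WT also fell in KO.

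The paralogs are extra copies of standard genes, several of them known mainly from testis or from the response to stress. Rpl10l, an intronless copy of X-linked Rpl10 that serves male germ cells, was at 173.2, 141 and 169.7 CPM in naive WT and 105, 91.1 and 83.33 in EpiLC WT. In KO it went from 143.3, 125.6 and 152.4 to 66.79, 64.8 and 107.5. Naive and EpiLC libraries did not overlap in either genotype, with log2 fold changes of -0.79 ± 0.178 in WT (adjusted p = 0.00241) and -0.82 ± 0.178 in KO (adjusted p = 0.00177). Per kb of exon, Rpl10l stood at 49.6% and 46.8% of Rpl10 in naive WT and KO, and at 25.2% and 24.9% in EpiLC WT and KO.

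Rpl39l, a testis-rich copy of the exit-tunnel gene Rpl39, had the smallest adjusted p of the 84 in naive KO against WT. Its naive levels were 53.89, 38.01 and 41.74 CPM in WT, against 65.99, 58.48 and 70.72 in KO. All KO libraries were above all WT libraries, but the log2 fold change of 0.55 ± 0.183 was not called (adjusted p = 0.0847). Without the filter on low counts it was called (adjusted p = 0.0186). In EpiLC the genotypes overlapped, with 52.72, 35.3 and 33.29 CPM in WT and 40.62, 51.45 and 49.01 in KO. From naive to EpiLC it fell in KO cells (-0.47 ± 0.183, adjusted p = 0.0447; 0.0563 in DESeq2).

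Rps27l, a copy of Rps27 known as a p53 target, had EpiLC levels of 181.7, 195.6 and 215.2 CPM in WT, against 217.3, 221.6 and 270.5 in KO. All KO libraries were above all WT libraries, by a small step, and the log2 fold change of 0.26 ± 0.101 was not called (adjusted p = 0.102). From naive KO to EpiLC KO it rose by 0.25 ± 0.101 (adjusted p = 0.0467). Per kb, it stood at 60.6% of Rps27 in WT and 77.4% in KO at the EpiLC stage.

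Rpl22l1, the copy of Rpl22, had naive levels of 47.16, 35.73 and 35.1 CPM in WT, against 52.89, 47.72 and 39.03 in KO. In EpiLC it was at 26.09, 40.3 and 39.47 in WT and 24.43, 32.56 and 36.36 in KO. The genotypes overlapped in both conditions, and it fell from naive to EpiLC in KO cells (-0.58 ± 0.201, adjusted p = 0.026; 0.0538 with libraries paired by the replicate block). Rpl7l1, a nucleolar relative of Rpl7, was called in no comparison, and stood at 14% to 20.4% of Rpl7 per kb over the 4 groups.

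**Figure D5:**
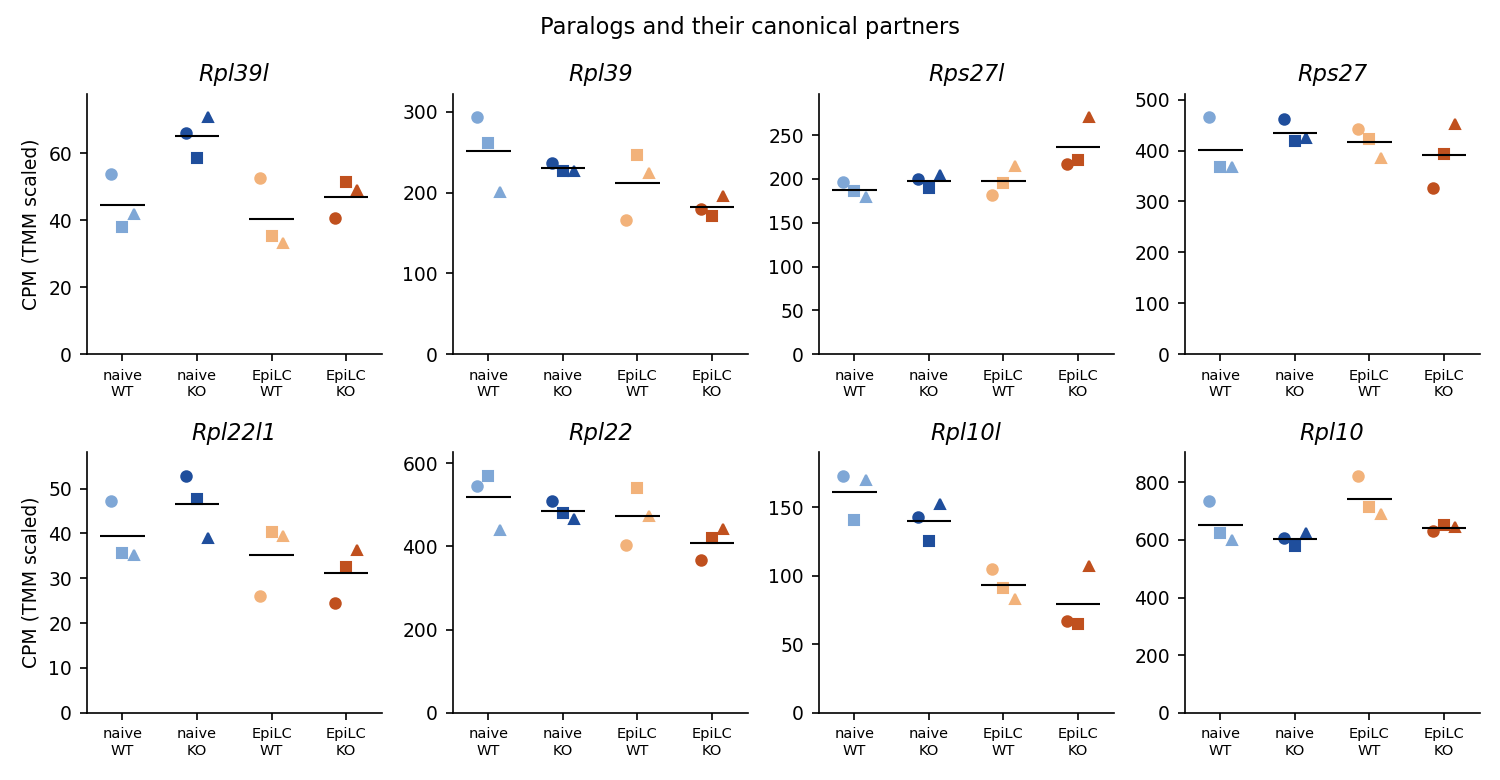
CPM (TMM scaled, axes from 0) of 4 paralogs, each beside its standard partner, in the 12 libraries; shapes give the replicate number and lines the group mean (n = 3). Rpl10l drops from naive to EpiLC in both genotypes, and Rpl39l is higher in all naive KO than in all naive WT libraries, without passing the test.

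The 2 pseudogene rows were abundant. Rps3a3 was at 222% to 234% of Rps3a1 per kb over the 4 groups, and Rps4l at 55.4% to 65% of the X-linked Rps4x. Reads that fit both copies equally well were not assigned under the counting used, so levels of these rows and their partners are uncertain. Neither was called, though in EpiLC all Rps4l values of KO lay below those of WT, at 337.4, 389.7 and 475.9 against 595.6, 479.4 and 500.6 CPM (log2 fold change -0.39 ± 0.135, adjusted p = 0.071). Rps19bp1 lay between 29.32 and 43.93 CPM in the 12 libraries and was called in no comparison. Fau, which encodes a ribosomal protein fused to a ubiquitin-like domain and falls outside the symbol rule, was called in neither KO comparison.

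Genes that make or use ribosomes were read beside the 84. Of 39 genes of ribosome biogenesis and RNA polymerase I, 28 rose and 0 fell from naive to EpiLC in WT (median 0.44), and 26 rose and 0 fell in KO (median 0.41). Of all genes, 26.4% were called up in WT and 27.1% in KO. The ribosomal protein genes over the same step had medians of 0.02 (with 1 library left out, -0.05 to 0.09) and -0.13 (-0.06 to -0.19). In EpiLC KO against WT, 1 biogenesis gene rose and 4 fell (median -0.03), and in naive cells 0 rose and 2 fell. For these KO contrasts, 7.22% of all genes were called higher and 7.86% lower in EpiLC, and 9.23% in either direction in naive cells.

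Sbds, which helps release the factor that keeps the subunits apart, had the smallest adjusted p of that list in both conditions. In naive cells it averaged 86.29 ± 1.02 CPM (SD, n = 3) in WT and 50.9 ± 2.61 in KO, a log2 fold change of -0.76 ± 0.0897 (adjusted p = 0.000379). In EpiLC it averaged 112.9 ± 9.36 in WT and 63.2 ± 2.70 in KO, a change of -0.84 ± 0.0896 (adjusted p = 0.000192). The nucleolar protein gene Mybbp1a fell by 0.45 in naive KO (adjusted p = 0.0201), a call lost without naive WT 1 (0.0559) or naive KO 1 (0.0786). Mybbp1a was also called lower in EpiLC KO, with a log2 fold change of -0.46 ± 0.107 (adjusted p = 0.0142). Nop56, of the box C/D snoRNA particle, fell by 0.36 in EpiLC KO (adjusted p = 0.0103).

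Of 19 other TOP transcripts, 2 fell in EpiLC KO and 0 were called in naive KO, where values ran from -0.36 to 0.24. The background was 7.86% of all genes called lower in EpiLC KO and 9.23% called in either direction in naive KO. Gas5, a noncoding snoRNA host, averaged 227.8 ± 7.82 CPM in WT and 151 ± 6.21 in KO among EpiLC (log2 fold change -0.59 ± 0.0959, adjusted p = 0.00214). Its naive values were 299.2 ± 11 and 300.8 ± 38.9, and the interaction was -0.60 ± 0.135 (adjusted p = 0.0869). The elongation factor gene Eef2 fell by 0.34 in EpiLC KO (adjusted p = 0.0147), a call lost without EpiLC KO 2 (0.0506) or with the GC trend removed (0.247).

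Among 14 regulators of TOP translation or of ribosomal protein transcription, 2 fell in EpiLC KO and 1 in naive KO. Calls over all genes stood at 7.86% (lower in EpiLC KO) and 9.23% (either direction in naive KO). Rps6kb2, an S6 kinase, averaged 27.15 ± 2.06 CPM in the naive control libraries and 18.63 ± 1.31 in the naive knockout libraries (log2 fold change -0.54 ± 0.143, adjusted p = 0.0332), and 16.45 ± 1.17 and 8.44 ± 1.28 in EpiLC (-0.96 ± 0.146, adjusted p = 0.00145). The naive call was lost without any of naive WT 1, 2 or 3 or naive KO 1 or 2 (adjusted p from 0.0596 to 0.109). Antisense neighbours cover 23.7% of its exon length, and counting ignored strand. Eif4ebp1, the translation repressor that mTOR inactivates, averaged 418.2 ± 69.8 CPM in WT and 247.4 ± 41.7 in KO among EpiLC (-0.76 ± 0.152, adjusted p = 0.00667).

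Of the 77 mitochondrial ribosomal protein genes tested, which serve a separate ribosome, 10 fell and 0 rose in EpiLC KO (median -0.14), and 2 fell in naive KO (median -0.09). Of all genes, 7.86% were called lower in EpiLC KO, and 9.23% were called in either direction in naive KO. In EpiLC KO, Mrps24 changed by -1.19 ± 0.172 (adjusted p = 0.0012) and Mrpl38 by -0.70 ± 0.103 (adjusted p = 0.00126). The naive calls were Mrpl38 at -0.40 ± 0.102 (adjusted p = 0.0281) and Mrpl40 at -0.36 ± 0.101 (adjusted p = 0.045). Leaving out naive WT 2 or 3 or naive KO 1 or 3 ended the former, and leaving out any naive library but WT 3 ended the latter. Removing the GC trend ended both (adjusted p = 0.157 and 0.0532).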

How the data were processed

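The deposited file gives read counts for each gene, not normalized, and exon length. Per the file headers, counting by the authors used featureCounts 2.0.1 with GENCODE vM25 (build GRCm38), without options for strand, multi-mapping or overlapping reads. The kit was stranded, per the labels' protocols. Every sample column was used.

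Counts were TMM scaled in edgeR 4.0.16 (R 4.3.3; limma 3.58.1) and given as CPM. After filterByExpr (minimum count 10, total 15), 18134 genes entered a quasi-likelihood fit of 4 group means over 12 libraries (8 residual degrees of freedom), with 5 contrasts and Benjamini-Hochberg adjustment over all genes. SE is the log2 fold change divided by the square root of F. The fit was tested on simulated data. Symbols matched 55141 of 55487 gene IDs. Alternatives included DESeq2 1.42.0.

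Within a genotype, naive and EpiLC libraries that share a number deviated together (r from 0.145 to 0.264), so numbers pair them. WT and KO libraries of the same number did not (-0.266 to 0.00374).

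Genes named: for each contrast the 5 called with the smallest adjusted p per direction, all paralogs with partners, the 3 highest and lowest per kb, rows next to the minimum, and 2 per other list and KO contrast. A few genes that this rule takes in are not reported here. The 84 genes and the lists were chosen with earlier results of these data known.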

Additional observations from a re-analysis of the deposited data

How the results depend on the processing

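The count of ribosomal protein genes called in naive KO (0) was 1 with DESeq2, 1 without the filter on low counts and 1 with the GC trend removed (a setting chosen after seeing the data). In EpiLC KO the 7 calls became 2 when only those 2 groups were fitted and 1 with a replicate block, although WT and KO numbers do not pair. With 1 library left out they ranged from 1 to 8. From naive to EpiLC, WT calls rose from 11 to 17 under the replicate block, and KO calls (16) became 21 under the block, 15 of them shared, and ranged from 6 to 16 with 1 library left out. The block also ended the call of Rpl22l1 in KO cells (adjusted p = 0.0538). The median in KO cells moved from -0.134 to -0.032 with the length trend removed. Causes were not tested, and the fits that leave out a library or use 2 groups also have fewer samples.

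Of 621 recomputations of 44 named fold changes, 513 kept their side of the threshold and sign, 107 lost the call, 1 gained it and 0 changed sign. For 21 of the 44, the call held or stayed absent under every setting tried. Scaling by RLE, or by TMM without the 84 genes, kept all 7 EpiLC KO calls. The median SE of a single gene's log2 fold change was 0.108.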
